A study of Mus musculus with 78 samples.

Results

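The nuclear-encoded respiratory chain genes are described here in single blastomeres of 4-cell and 8-cell mouse embryos. The members are the protein-coding genes whose symbol starts with Nduf, Sdha to Sdhd, Uqcr, Cox4 to Cox8 or Atp5. This rule is met by 100 genes of the RefSeq annotation, and 93 of them have a row in both gene tables, out of 13604 genes listed in both. Ndufs5, Ndufb1, Ndufb4b, Ndufb4c, Ndufa4l2, Cox6a2 and Cox8b have no row in the tables used here. The 93 comprise 43 genes of complex I, 8 of complex II, 8 of complex III, 17 of complex IV and 17 of complex V, assembly factors and tissue isoforms included.

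The embryos came from crosses of a line homozygous for the CAG-Brainbow2.1 construct in the Rosa26 locus with a line homozygous for the Tg(CAG-cre/Esr1*)5Amc transgene, so that every blastomere of both stages carries 1 copy of each. Embryos of both stages were treated with 4-hydroxytamoxifen as 2-cell embryos and then cultured, and there is no untreated group. Each blastomere was made into a Smart-seq2 library, a full-length cDNA protocol for single cells. The tables hold 24 columns for the 4-cell stage and 26 for the 8-cell stage, and no column name gives the sample, embryo or lineage. The labels list 36 blastomeres of 9 4-cell embryos and 31 of 4 8-cell embryos, of which 24 of 6 embryos and 26 of 4 embryos have a lineage label. These numbers equal those of the columns, so that a stage rests on few embryos and blastomeres of an embryo are not independent. Each stage was therefore taken as 1 sample without replicates: values are given as the lowest, median and highest blastomere, no test was made, and a difference between the stages has no replicate check.

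The respiratory chain transfers electrons from NADH and succinate to oxygen and uses the energy to pump protons across the inner mitochondrial membrane, and ATP synthase lets them flow back to make ATP. Complex I oxidises NADH, complex II oxidises succinate, complex III passes electrons from ubiquinol to cytochrome c, complex IV reduces oxygen, and complex V is ATP synthase. The mitochondrial genome encodes a few subunits of complexes I, III, IV and V, and the nucleus encodes the others and all of complex II. Genes of the mitochondrial genome are not analysed here. The cleaving mouse embryo inherits its mitochondria from the oocyte and relies mainly on pyruvate and lactate for energy before compaction, so that respiration is its main source of ATP.

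Depth and cell identity were checked first. The numbers of fragments behind the FPKM values, estimated from the steps between low values, lay, in units of 1e6, between 6.87 and 16.9 in 4-cell and between 2.34 and 21.8 in 8-cell libraries. Between 3009 and 8276 genes were above an FPKM of 1 in a 4-cell blastomere and between 3548 and 8078 in an 8-cell blastomere, and 3 blastomeres of each stage had fewer than 5000. A member of the median exon length, 772 bases, reaches an FPKM of 0.179 to 1.66 with 3 fragments in an 8-cell library, and of 0.230 to 0.565 in a 4-cell library, so that a value of 0 allows levels up to these and covers counting error only. Early embryo genes were present, with median FPKM of 3658 and 3260 for Dppa3 and 1313 and 1486 for Obox6 at the 4-cell and the 8-cell stage. Of the 9 early embryo markers, Zar1 had a median of 0 at both stages, and Ooep and Gdf9 at the 8-cell stage only. The pluripotency factor Pou5f1 was past 2-fold higher with 41.5 and 110.2, and the oocyte genes Nlrp5, with 5.06 and 0.121, and Gdf9, with 4.39 and 0, were past 2-fold lower. Of the 8 markers of cumulus cells 3 had a row in both tables and 5 in at least 1 table, and of the 4 sperm markers 2 had a row in both. Those in both tables all had a median of 0, and their summed level in any blastomere was at most 9.51 and 23.3 FPKM, respectively. Cumulus markers listed in only 1 table are not part of these values.

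Nuclear respiratory chain genes are known targets of NRF1 and of the ETS family factor GABP, and several are known targets of YY1. The promoter table of RefSeq (GRCm38.p6) gave 83 windows for 78 of the 93 members, each from 250 bases before to 50 bases after the start of a transcript. The NRF1 core GCGCANGCG was found on either strand in 24 of these 83 windows (28.9%), against 8.58% of the 21263 windows of protein-coding genes. The ETS letters CCGGAAG were found in 22 windows (26.5%, against 11.6%) and the YY1 letters AAGATGG in 12 (14.5%, against 6.24%). At least 1 of the 3 was present in 57.8% of the members' windows and in 23.3% of all windows. The NRF1 core was found in 7 of the 18 windows of complex V, in 8 of the 33 of complex I subunits and in 1 of the 10 of complex IV subunits. For complex II and complex III subunits it was found in 2 of 3 and 2 of 5 windows. A match is a description of these letters and not a binding site.

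The 250 bases before a transcript start of 5 members are shown to let these motifs be seen in place, with every match in capitals. For Sdhaf3 and Ndufa10 this start lies inside the gene span given below, so that some of the bases shown are within the span. Cox6a1 has the most matches among the members in these bases, Ndufb4 has 3 NRF1 cores, and Atp5g2 has a pair of overlapping ones. Sdhaf3 and Ndufa10 are 2 of the members that were higher at the 8-cell stage, the first with an ETS match and the second with none.
Cox6a1 (chr5:115348959-115349208, minus strand): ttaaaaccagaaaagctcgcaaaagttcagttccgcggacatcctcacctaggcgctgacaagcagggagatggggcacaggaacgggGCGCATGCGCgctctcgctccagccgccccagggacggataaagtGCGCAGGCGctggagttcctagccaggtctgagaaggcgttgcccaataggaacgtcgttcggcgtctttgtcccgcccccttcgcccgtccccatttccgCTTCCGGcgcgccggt
Ndufb4 (chr16:37654369-37654618, minus strand): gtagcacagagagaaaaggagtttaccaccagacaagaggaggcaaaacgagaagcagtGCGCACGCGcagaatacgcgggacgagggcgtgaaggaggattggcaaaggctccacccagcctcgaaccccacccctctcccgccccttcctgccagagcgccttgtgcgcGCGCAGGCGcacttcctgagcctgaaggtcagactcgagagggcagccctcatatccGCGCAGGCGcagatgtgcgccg
Atp5g2 (chr15:102671048-102671297, minus strand): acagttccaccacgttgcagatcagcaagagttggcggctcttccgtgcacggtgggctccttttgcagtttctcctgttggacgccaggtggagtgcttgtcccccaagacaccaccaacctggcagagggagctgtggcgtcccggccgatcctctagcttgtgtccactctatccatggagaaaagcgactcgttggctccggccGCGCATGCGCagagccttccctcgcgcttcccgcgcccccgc
Sdhaf3 (chr6:6955768-6956017, plus strand): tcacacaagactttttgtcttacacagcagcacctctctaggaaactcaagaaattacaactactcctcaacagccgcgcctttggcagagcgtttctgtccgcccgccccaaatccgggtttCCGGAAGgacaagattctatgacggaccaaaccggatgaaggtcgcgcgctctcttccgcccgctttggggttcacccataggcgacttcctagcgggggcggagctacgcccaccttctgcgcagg
Ndufa10 (chr1:92473759-92474008, minus strand): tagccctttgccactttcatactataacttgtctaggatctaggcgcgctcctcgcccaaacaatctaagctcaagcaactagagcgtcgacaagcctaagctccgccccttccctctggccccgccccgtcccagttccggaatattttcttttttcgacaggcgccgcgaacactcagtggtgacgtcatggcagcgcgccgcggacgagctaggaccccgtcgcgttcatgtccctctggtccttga
In Cox6a1 the capitals closest to the start are the ETS letters on the opposite strand, and the 2 runs further upstream are NRF1 cores. The first run holds 2 cores that overlap on opposite strands, as does the run in Atp5g2.

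The level of the members differed between the complexes. The median over subunits of their median FPKM was 27.3 for the 4 subunits of complex II at the 4-cell stage, 78.4 for 35 subunits of complex I, 192 for 8 of complex III, 222 for 17 of complex V and 231 for 12 of complex IV. In 8-cell blastomeres the same values were 37.2, 68.9, 153, 197 and 217, in the same order. Complexes II and I were at 7.21 and 45.6 within columns 13 to 24 of the 4-cell table, a block described below, and at 35.8 and 92.7 within columns 1 to 12. FPKM is per length, so that levels of different genes can be set side by side. The median exon lengths of the subunits were 1232, 936, 948, 729 and 557 bases for complexes II, I, III, V and IV, and the part of length in this order was not tested. Complex I stood below each of complexes III, IV and V in 24 of 24 and 26 of 26 blastomeres, and complex II below complex I in 22 and 24 of them. The order among complexes III, IV and V was less regular, with complex V below complex IV in 17 of 24 and 19 of 26 blastomeres. Across blastomeres the median of the complex IV subunits lay at a median of 235 FPKM at the 4-cell stage, with a lowest value of 0.222, and at 221 at the 8-cell stage, from 131 to 425.

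**Figure D1:**
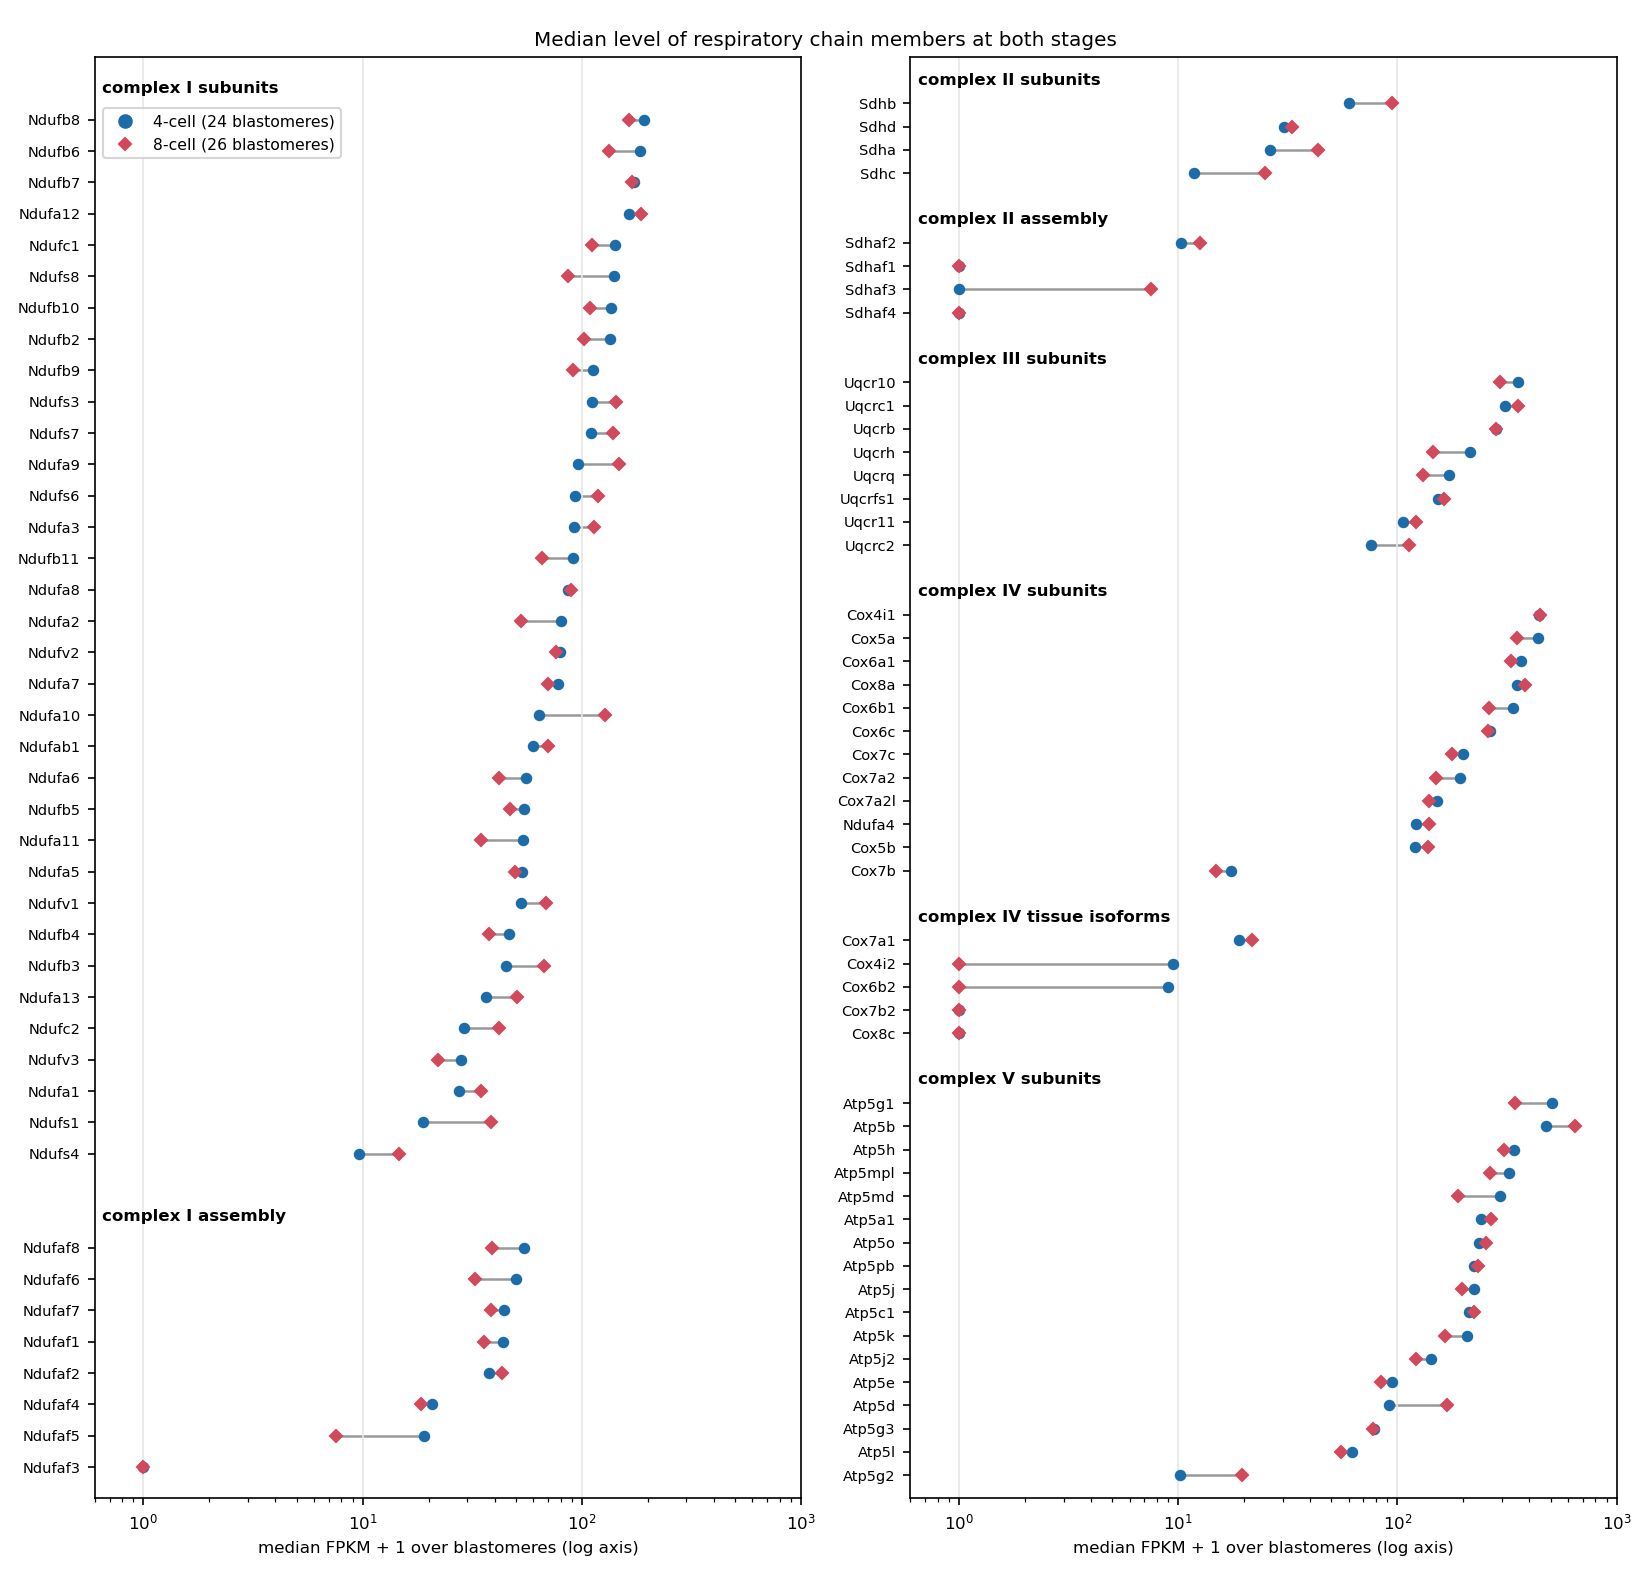
Median FPKM + 1 of the members described here over 24 4-cell blastomeres (circles) and 26 8-cell blastomeres (diamonds), on a log axis and grouped by complex, with a line joining the stages. Most members of complexes III, IV and V lie above 100, and Ndufs1, Ndufa10, Sdhc, Sdhaf3, Ndufaf5, Cox4i2 and Cox6b2 have the longest lines, together with Atp5g2 and Atp5d.

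Many members were among the most abundant mRNAs of the embryo. The median FPKM exceeded 100 in 41 members at the 4-cell stage and in 45 at the 8-cell stage, and 30 of the 93 were among the highest 5% of protein-coding genes at each stage. Together the members made up a median of 2.76% of the summed FPKM of a 4-cell blastomere, from 1.09% to 3.73%, and 2.73% at the 8-cell stage, from 1.95% to 4.21%. These ranges overlap. Among the members, 23 were above 0 in all 50 blastomeres, including Uqcrc1, Uqcr10, Uqcrb and Uqcrq of complex III, Cox4i1, Cox5a, Cox6a1, Cox6c and Cox7c of complex IV, and Atp5a1, Atp5b, Atp5c1, Atp5g1 and Atp5pb of complex V.

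The blastomeres with the fewest genes lost members unequally. In the 4-cell blastomere with 3009 genes 54 of the 93 members were listed at 0, and in the one with 3699 genes 37, against a median of 5 among the 21 blastomeres with at least 5000. In the first of these 24 of 35 complex I subunits were at 0 and 7 of 17 complex V subunits, although its depth of 9.66 in the same units was within the range of the other libraries. Its 3009 genes stand beside a median of 7155 at the 4-cell stage, and the share of all genes at 0 was not counted. Complex V subunits also had higher levels than those of complex I, and the part of level was not tested. The 8-cell blastomere with 3548 genes and the lowest depth, 2.34, had 18 members at 0, among them no subunit of complexes III, IV or V. These 2 4-cell blastomeres also had the 2 lowest shares of FPKM in the members, and the lowest values of many members at that stage come from them. The paper lists the highest mitochondrial mapping rates of the 4-cell stage for 2 blastomeres of a single embryo. Whether they are these 2 columns was not determined. The counts of members past 2-fold, the counts higher and lower by complex and the correlations are also given below without the 6 blastomeres with fewer than 5000 genes, whereas the medians of single genes and the stage differences of other gene lists are given over all blastomeres only.

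The 4-cell table also fell into blocks by column. Sdhc, a subunit of complex II, lay between 12.1 and 53.4 FPKM in each of columns 1 to 12 and at or below 9.51 in each of columns 13 to 24, where 7 were at 0. Of the 7131 genes with a median FPKM above 1 in a stage, 0.533% had values that did not overlap between these blocks, and Sdhc was 1 of these 38 genes and the only member. The first block held between 6675 and 8276 genes above an FPKM of 1 per blastomere and the second between 3009 and 7912, the 3 gene-poor 4-cell blastomeres among them. Depth ran from 11.6 to 15.1 and from 6.87 to 16.9 in the same units. No source used here states which blastomeres the columns are, and columns were not assigned by their order or depth. What the blocks are was therefore not determined. The border was set after the values of Sdhc were seen, so that values are also given by block as a description only. These are stage differences of members past 2-fold, counts for larger groups and correlations over all pairs, by complex and for 4 pairs.

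**Figure D2:**
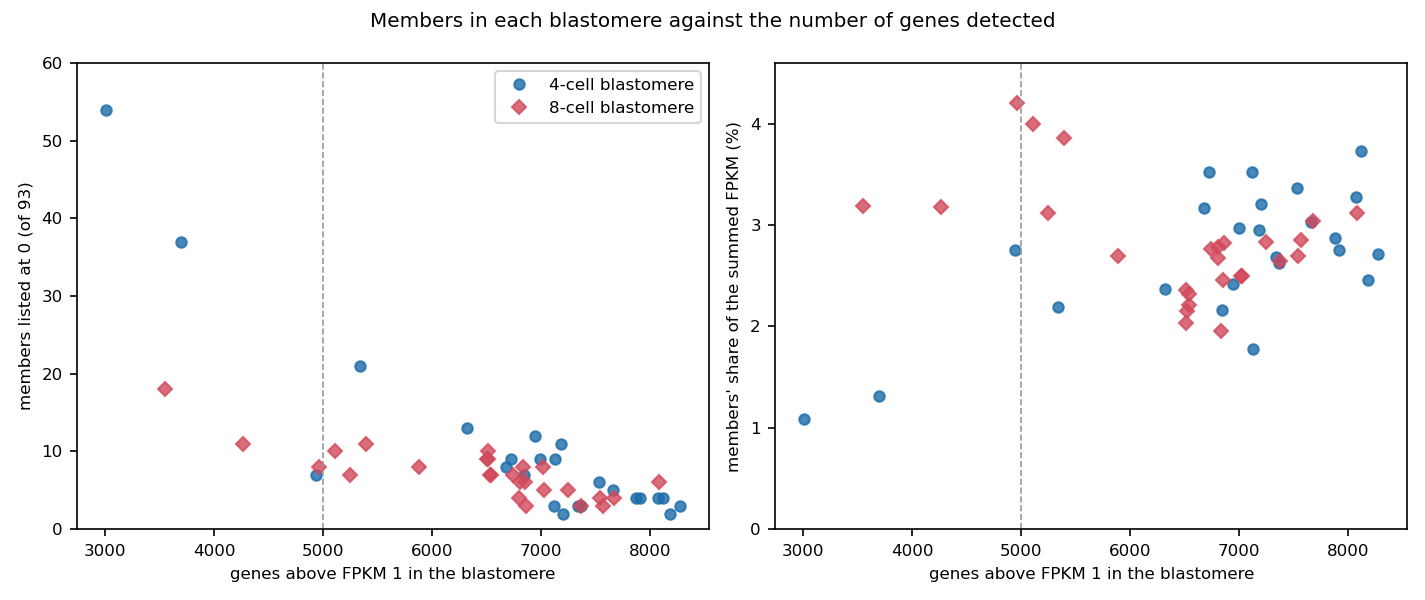
Members listed at 0 (left, of 93) and the members' share of the summed FPKM in percent (right) against the number of genes above FPKM 1, with 1 point per blastomere and a dashed line at 5000 genes. The 4-cell blastomeres with 3009 and 3699 genes stand apart with 54 and 37 members at 0 and shares of 1.09% and 1.32%.

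The stage difference was taken per gene as the median log2(FPKM+1) of the 8-cell blastomeres minus that of the 4-cell blastomeres, and a difference of at least 1, 2-fold on this scale, was counted. Of the 93 members 4 were higher at the 8-cell stage by this measure, namely Ndufs1, Ndufa10, Sdhc and Sdhaf3, and 3 were lower, namely Ndufaf5, Cox4i2 and Cox6b2. Of all 13604 genes 5.17% were higher and 9.67% lower, and of the 7131 genes with a median FPKM above 1 in a stage 9.87% were higher and 18.5% lower. With means of the log values 12 members were past 2-fold higher and 3 lower, beside 8.33% and 12.2% of the 7131 genes. The median difference of the members was -0.02, beside -0.11 over the 7131 genes. Of the members 40 had a higher and 48 a lower median at the 8-cell stage, and 44.6% of the 7131 genes were higher. This balance depended on the measure, with 67 members higher when means of the log values took the place of medians, 44 after rescaling all blastomeres to the same sum, 30 after division by the upper quartile and 32 without the gene-poor blastomeres. Of the 7131 genes 46.8%, 47.3%, 40.01% and 43.9% were higher in these settings, in the same order. The ranges of the 2 stages overlapped in each of the 93 members, but no share over all genes is set beside this count.

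The stage difference depended on the block of 4-cell columns. Against columns 1 to 12 alone none of the 93 members was past 2-fold higher and 5 were lower, namely Ndufaf5, Sdhaf3, Sdhaf4, Cox4i2 and Cox6b2, beside 6.46% and 19.7% of the 7131 genes. Against columns 13 to 24 alone 23 members were higher, among them Sdha, Sdhb, Sdhc, Sdhd, Uqcrc2, Atp5d and Atp5g2, and Ndufaf5 and Cox6b2 were lower, beside 24.2% and 17.8% of the genes. Without the 3 gene-poor blastomeres of that block the counts were 21 and 5, beside 18.3% and 22.6%. The median difference of the members was -0.35 against the first block and 0.27 against the second, beside -0.21 and 0.05 over the 7131 genes. Ndufaf5 and Cox6b2 were past 2-fold lower against either block, and Cox4i2 was so against columns 1 to 12 and against columns 13 to 24 without the gene-poor blastomeres.

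Members close to the 2-fold line were Ndufa10, Ndufs1 and Sdhc, just inside with differences of 1.01, 1.04 and 1.08, and Atp5g2 and Atp5d, just outside with 0.93 and 0.88. When single blastomeres were left out, Ndufa10 lay between 0.76 and 1.25 and Sdhc between 0.92 and 1.24, and each fell short of 2-fold in 25 of 50 such runs, while the lowest value of Ndufs1 was 1.00006. Without the 6 gene-poor blastomeres Ndufa10 fell short, with 0.51, and so did Sdhc, with 0.92, whereas Ndufs1, Sdhaf3, Ndufaf5, Cox4i2 and Cox6b2 stayed past 2-fold in that setting. In GRCm38.p6 the 4 higher members lie as Ndufs1 (Entrez 227197) on chr1:63143592-63176822, Ndufa10 (Entrez 67273) on chr1:92439486-92473825, Sdhc (Entrez 66052) on chr1:171129157-171150640 and Sdhaf3 (Entrez 71238) on chr6:6955971-7039661. The 3 lower members are Ndufaf5 (Entrez 69487) on chr2:140170584-140218965, Cox4i2 (Entrez 84682) on chr2:152753916-152765039 and Cox6b2 (Entrez 333182) on chr7:4751792-4753094. The spans of Ndufs1, Ndufa10, Sdhc, Ndufaf5 and Cox4i2 overlap those of Ino80dos, Mir6900, Gm46172, Gm52594 and Bcl2l1, in this order, and without strand the reads of a shared stretch cannot be told apart.

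The core subunits of complex I carry the flavin and the iron-sulfur clusters that pass electrons from NADH to ubiquinone, and 4 of the 6 described here had a higher median at the 8-cell stage. Ndufs1, the largest subunit and a holder of several iron-sulfur clusters, ranged from 0 to 51.0 FPKM with a median of 17.9 at the 4-cell stage and from 0 to 77.0 with a median of 37.7 at the 8-cell stage, a difference of 1.04 or 2.05-fold on the FPKM+1 scale. Most 8-cell blastomeres lay above the 4-cell median, but 1 was at 0, as were 2 at the 4-cell stage. The difference was 0.63 against columns 1 to 12 of the 4-cell table and 2.15 against columns 13 to 24. Ndufv1, which binds NADH and the flavin, had medians of 51.7 and 67.4. Ndufs3 and Ndufs7 had medians of 110 and 109 at the 4-cell stage and 142 and 138 at the 8-cell stage. Ndufs8, which binds iron-sulfur clusters, went the other way, from a median of 139 to one of 85.5, a difference of -0.69. Ndufv2 had medians of 78.4 and 75.4. The count of 4 of 6 was the same after rescaling to the same sum, after upper-quartile scaling and without the gene-poor blastomeres, and the median difference of the 6 lay between 0.19 and 0.41 in these settings. With means of the log values 5 of 6 were higher, with a median difference of 0.79. Against columns 1 to 12 and 13 to 24 of the 4-cell data 3 and 5 of the 6 were higher.

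The accessory subunits of complex I surround the core and serve its assembly and stability. Of 28 measured, 12 had a higher and 16 a lower median at the 8-cell stage, with a median difference of -0.13, whereas 21 of 28 were higher with means of the log values. Leaving out the gene-poor blastomeres gave 11 higher, and taking only columns 1 to 12 or 13 to 24 of the 4-cell data gave 4 and 21. Ndufb8 was the highest complex I gene at the 4-cell stage with a median of 192, from 0.236 to 366, and had 163 at the 8-cell stage. Ndufa12 was the highest at the 8-cell stage with 185, from 120 to 489, after 163 at the 4-cell stage. Ndufs4, needed for the stability of the NADH-oxidising arm, was the lowest subunit at both stages with medians of 8.61 and 13.6, and was at 0 in 5 and 3 blastomeres. Ndufa10 ranged from 0 to 163 with a median of 63.0 at the 4-cell stage and from 59.2 to 281 with a median of 126 at the 8-cell stage. Its 4-cell values were spread widely, with 3 at 0, while no 8-cell blastomere was below 59.2. In columns 1 to 12 its median was 92.7 and in columns 13 to 24 it was 10.8, so that the difference was 0.44 against the first block and 3.42 against the second.

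Assembly factors of complex I, which help to build the complex and do not remain in it, had 6 of 8 medians lower at the 8-cell stage and 1 higher, beside 44.6% of the 7131 genes higher. Ndufaf5, which modifies an arginine of Ndufs7 during assembly, ranged from 3.94 to 57.3 with a median of 18.05 at the 4-cell stage, where it was detected in all 24 blastomeres. Among 8-cell blastomeres it ranged from 0 to 24.8 with a median of 6.53 and 5 blastomeres at 0, a difference of -1.34 or 2.53-fold. Leaving out any single blastomere left this difference between -1.35 and -1.33, and against columns 1 to 12 and 13 to 24 alone it was -1.34 and -1.32. Ndufaf6 followed with medians of 48.9 and 31.5, and Ndufaf8 with 53.5 and 37.9. Ndufaf2 was the exception with 36.6 and 42.1, and Ndufaf3 had a median of 0 at both stages, above 0 in 7 and 4 blastomeres. No median of these 8 was higher against columns 1 to 12 of the 4-cell table and 3 were against columns 13 to 24. The count of lower medians was 5 of 8 with upper-quartile scaling and 6 of 8 after rescaling and without gene-poor blastomeres.

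Complex II, succinate dehydrogenase, is also an enzyme of the tricarboxylic acid cycle, and all 4 of its subunits had a higher median at the 8-cell stage. Sdha, the flavoprotein that oxidises succinate, had medians of 25.1 and 42.5, and Sdhb, the iron-sulfur subunit and the highest of the complex, of 59.0 and 93.5. Sdhc, a membrane anchor and the lowest of the complex, ranged from 0 to 53.4 with a median of 10.8 and 7 blastomeres at 0 at the 4-cell stage. In 8-cell blastomeres it then ranged from 0 to 81.9 with a median of 23.9 and 3 at 0, a difference of 1.08 or 2.12-fold. Against columns 1 to 12, with a median of 20.8, the difference was 0.19, and against columns 13 to 24, with a median of 0, it was 4.64. The border of these blocks was set after the values of Sdhc were seen, so that this contrast is not an independent result. Sdhd, the other anchor, had medians of 29.5 and 31.97, a difference of 0.11. The median difference of the 4 was 0.69 and lay between 0.73 and 0.81 with the other scalings, where all 4 stayed higher, but without the gene-poor blastomeres, or against columns 1 to 12 alone, 3 of 4 were higher. With means of the log values the median difference was 1.06. It was 0.10 against columns 1 to 12 and 2.59 against columns 13 to 24, or 1.69 without the gene-poor blastomeres there, with Sdhc among the 4 genes.

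The assembly factors of complex II were scarce. Sdhaf3, which aids the maturation of Sdhb, was above 0 in 11 of 24 4-cell blastomeres and in 16 of 26 8-cell blastomeres. Its median was therefore listed at 0 at the 4-cell stage, with values up to 52.9, and was 6.52 at the 8-cell stage, with values up to 143. The difference of 2.91 thus rests on the median passing from 0 to a positive value, and with means of the log values it was 0.54. It was reversed against columns 1 to 12, with a median of 17.1 and a difference of -1.27, while 10 of columns 13 to 24 were at 0 and the difference there was 2.91. Sdhaf2, which attaches the flavin to Sdha, had medians of 9.31 and 11.6. Sdhaf1 and Sdhaf4 had medians of 0 at both stages, and Sdhaf1 was above 0 in 2 and 7 blastomeres and Sdhaf4 in 9 and 9.

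All 8 nuclear subunits of complex III were high, and 4 had a higher and 4 a lower median at the 8-cell stage, a split that was 1 and 7 with upper-quartile scaling or against columns 1 to 12, 2 and 6 without the gene-poor blastomeres and 5 and 3 against columns 13 to 24. Uqcr10, a small subunit, was the highest at the 4-cell stage with a median of 354, from 122 to 570, and had 291 at the 8-cell stage. Uqcrc1, a core protein, was the highest at the 8-cell stage with 355, from 203 to 644, after 308, from 109 to 639, at the 4-cell stage. Uqcrc2, the partner core protein, was the lowest at both stages with 75.1 and 112. The FPKM of Uqcrc1 exceeded that of Uqcrc2 in every blastomere, with a median ratio of 4.52 and 3.22. Uqcrfs1, the Rieske iron-sulfur protein, had 153 and 162, and Uqcrh, the hinge protein, had 213 and 144. The gene span of Uqcrq overlaps that of Gdf9, an oocyte growth factor, in the annotation.

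Complex IV, cytochrome c oxidase, held many of the most abundant members. Cox4i1, through which ATP can regulate the enzyme, was the highest at both stages, with medians of 443 and 446 and ranges of 3.90 to 672 and 261 to 704. Cox5a followed at the 4-cell stage with 438 and had 349 at the 8-cell stage, and Cox8a had 349 and 382. Cox7b, encoded on the X chromosome, was the lowest of the 12 general subunits with 16.3 and 13.8. Ndufa4, once assigned to complex I and now to complex IV, had 121 and 139. Of the 12, 8 had a lower median at the 8-cell stage, with differences down to -0.36 on the log2 scale, and 11 did with upper-quartile scaling and 2 with means of the log values. Leaving out the gene-poor blastomeres gave 9, and taking only columns 1 to 12 or 13 to 24 of the 4-cell data gave 12 and 5.

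Several complex IV subunits have a second gene that is used in particular tissues, and these isoforms were measured at far lower levels than their general partners. Cox4i2, the isoform of lung and low oxygen, ranged from 0 to 39.4 with a median of 8.48 and 7 of 24 blastomeres at 0 at the 4-cell stage. Of the 8-cell blastomeres 14 of 26 were at 0, so that its median was listed at 0, with values up to 69.0. Cox6b2, the testis isoform, ranged from 0 to 27.6 with a median of 7.93 and 4 at 0, and then from 0 to 43.7 with 16 of 26 at 0. On the log2 scale these differences were -3.24 and -3.16, and no fold is given against a median of 0. For Cox4i2 the difference was -3.69 against columns 1 to 12 and -0.64 against columns 13 to 24, or -1.27 without the 3 gene-poor blastomeres there, and for Cox6b2 it was -3.01, -3.34 and -3.42. With means of the log values over all blastomeres the differences were -1.19 and -1.57. Both ranges overlap widely between the stages. Cox4i2 made up a median of 1.62% of the FPKM of the Cox4 pair in the 4-cell blastomeres and Cox6b2 1.81% of its pair, and both 0% at the 8-cell stage, with highest values of 11.5% and 5.64%, both in the gene-poor blastomere with 4963 genes. Among the other 8-cell blastomeres with at least 5000 genes the highest values were 2.59% and 4.67%, and the highest levels 15.01 and 15.1 FPKM. Cox6b1, the general partner of Cox6b2, had medians of 336 and 262.

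Cox7a1, the heart and muscle isoform, was present at both stages, with medians of 17.97 and 20.8 and ranges from 0 to 50.3 and from 0 to 99.8. It made up a median of 9.66% and 12.5% of its sum with Cox7a2, which had 191 and 150, and reached 48.6% in the 8-cell blastomere with 3548 genes and the lowest depth, 2.34, and 25.4% among the other 8-cell blastomeres. Cox7a2l, which takes part in supercomplex assembly, had 151 and 138. Cox7b2 and Cox8c, both testis isoforms, had medians of 0 at both stages and were above 0 in 4 and 2, and in 5 and 1 blastomeres.

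**Figure D3:**
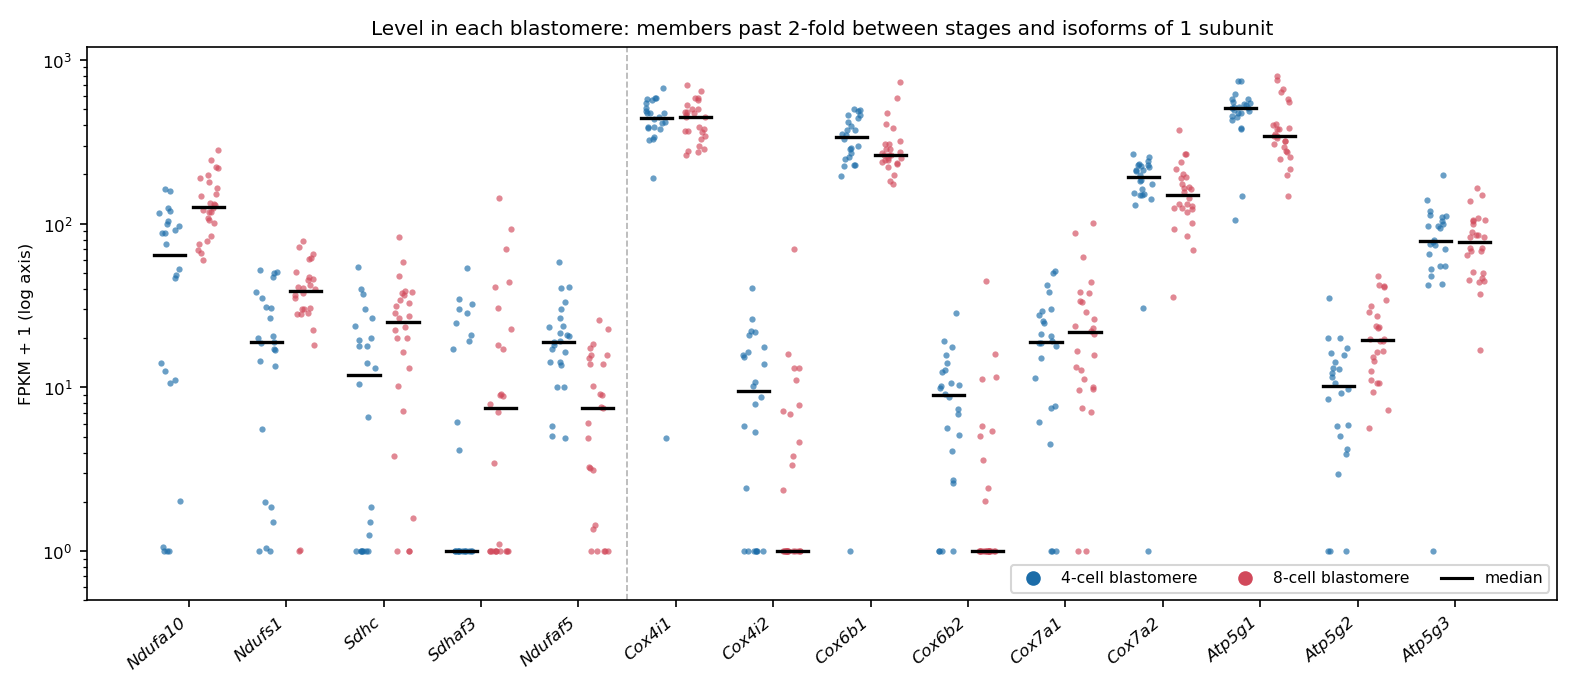
FPKM + 1 on a log axis in each 4-cell (left of each pair) and 8-cell blastomere (right of each pair) for 5 members past 2-fold between the stages and, right of the dashed line, for subunits with more than 1 gene, with a black bar at the median. Cox4i2 and Cox6b2 are also past 2-fold and have their 8-cell medians at 0, while Cox4i1 and Cox6b1 have medians of 262 to 446 at both stages.

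In complex V the catalytic F1 head is built from Atp5a1, Atp5b, Atp5c1, Atp5d and Atp5e, and 4 of these 5 had a higher median at the 8-cell stage, 3 with upper-quartile scaling, without gene-poor blastomeres or against columns 1 to 12 of the 4-cell table. Atp5b, the catalytic beta subunit, was the highest member at the 8-cell stage with a median of 647, from 459 to 953, after 477, from 104 to 810, at the 4-cell stage. Atp5a1, the alpha subunit, had medians of 241 and 266. Although alpha and beta occur in equal numbers in the enzyme, Atp5b exceeded Atp5a1 in 23 of 24 and 26 of 26 blastomeres, with a median ratio of 2.08 and 2.55. Atp5c1, the gamma subunit of the central stalk, had 212 and 222. Atp5d, the delta subunit, went from 90.1 to 167, and its difference of 0.88 was the largest of the F1 genes. Atp5e, the epsilon subunit, had 93.7 and 82.9.

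The c subunit of the rotor ring has 3 genes that encode the same mature protein with different import signals. Atp5g1 was the highest member at the 4-cell stage, with a median of 507, from 104 to 743, and had 343 at the 8-cell stage, from 146 to 792, a difference of -0.56. Atp5g3 had 77.2 and 76.1. Atp5g2 was the lowest gene of complex V, with 9.22, from 0 to 34.2, and 18.5, from 4.66 to 47.1, a difference of 0.93. The share of Atp5g1 in the FPKM of the 3 genes had a median of 84.7% at the 4-cell stage, from 72.7% to 92.3%, and 78.2% at the 8-cell stage, from 62.2% to 93.5%. That of Atp5g2 had medians of 1.41% and 4.02%. The 9 other subunits, of the stalks and the membrane part, had 7 lower and 2 higher medians at the 8-cell stage, all 9 lower with upper-quartile scaling and 7 of 9 higher with means of the log values. Of these 9, 8 were lower without the gene-poor blastomeres and against columns 1 to 12, and 5 against columns 13 to 24. Atp5md differed most with 292 and 188, a difference of -0.64.

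Length was set beside these differences, over all blastomeres only. Among the 88 members with a median FPKM above 1 in a stage, 21 of the 35 with exons of at least 1000 bases were higher at the 8-cell stage, with a median difference of 0.11. Of the 53 shorter ones 19 were higher, with a median difference of -0.17. The correlation of the difference with log2 exon length was 0.13 over the 88 members and 0.02 over 7033 other genes. Complex II, the F1 head and the core of complex I had median exon lengths of 1232, 1801 and 1608 bases, beside 772 for all members, and the part of length in their stage differences was not tested.

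Genes that act around the chain gave the following values, with the lists chosen as for the members. Of 15 complex IV assembly factors 3 were past 2-fold higher and none lower, namely Surf1 with medians of 12.1 and 39.9, Sco1, a copper chaperone, with 0.653 and 5.53, and Cox15, of haem a synthesis, with 2.10 and 5.82, beside 9.87% of the 7131 genes. With means of the log values Cox15 had a difference of 0.68 and fell short of 2-fold, and Surf1 and Sco1 had 1.43 and 1.04. Of 6 complex III assembly factors Bcs1l, which inserts the Rieske protein, was above 0 in 11 of 24 and 18 of 26 blastomeres, with medians listed at 0 and of 8.08 and a difference of 0.61 with means of the log values. Of 3 complex V assembly factors none was past 2-fold. Of 13 tricarboxylic acid cycle genes 10 were higher. Of 11 import genes 10 were higher, beside 44.6% of the 7131 genes, and Tomm70a, a receptor of the outer membrane, was past 2-fold with 21.04 and 48.7. Among carriers and channels Slc25a31, an ADP/ATP carrier of the germ line, had 0.183 and 8.59 and was past 2-fold. None of the 9 genes of mitochondrial genome expression was past 2-fold by medians, while with means of the log values Tfb2m, a mitochondrial transcription factor, had -1.06 and Lrpprc, which binds mitochondrial mRNAs, had 1.02. The electron carrier cytochrome c, Cycs, had 36.3 and 31.6, and its testis form Cyct a median of 0 at both stages.

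The regulators stayed within 2-fold, with 7 of 8 listed in both tables. Nrf1 had medians of 37.8 and 31.7, from 18.2 to 93.7 and from 0.0877 to 67.8. Gabpa had 68.8 and 60.5 and its partner Gabpb1 27.3 and 27.5. Yy1 had 15.001 and 27.1, a difference of 0.80, and Pprc1, a coactivator of the PGC-1 family, 26.4 and 35.1. Esrra was at 0.102 and 0.0291 and Ppargc1b at 0 at both stages. Gabpa and Atp5j overlap in the annotation, so that reads of their shared stretch cannot be assigned to either with certainty without strand.

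Across blastomeres the members varied together. The median Pearson correlation of log2(FPKM+1) between 2 members was 0.52 over the 24 4-cell blastomeres, for 87 members with a median FPKM above 1, beside 0.12 over all 6763 such genes. Over the 26 8-cell blastomeres it was 0.30 for 86 members, beside 0.04 over 6234 genes. Of the pairs of members 93.3% were above 0 at the 4-cell stage and 77.6% at the 8-cell stage. With all other genes the members had a median correlation of 0.24 and -0.03. The points share embryos, library preparation and depth, and these values are a description. Without the 6 gene-poor blastomeres the median was 0.33 for the members and 0.01 for all genes at the 4-cell stage, and 0.30 and 0.01 at the 8-cell stage. After rescaling to the same sum it was 0.43 and 0.08 at the 4-cell stage and 0.18 and 0.06 at the 8-cell stage. Within columns 1 to 12 of the 4-cell table it was 0.20 for the members and -0.00108 for all genes, and within columns 13 to 24 it was 0.46 and 0.15, or 0.25 and 0.02 without the gene-poor blastomeres.

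The correlation was then taken by complex. Pairs within a complex had a median of 0.53 and pairs between complexes of 0.51 at the 4-cell stage, and 0.30 and 0.31 at the 8-cell stage. At the 8-cell stage it was highest within complex IV, with 0.59, and complex III, with 0.53, followed by complex V with 0.41 and complex I with 0.26. The 6 complex II genes, assembly factors included, had a median of -0.00201 at the 8-cell stage, whereas 5 of them had 0.59 at the 4-cell stage. Without the gene-poor blastomeres these complex II values were -0.155 and 0.61, and that of complex IV at the 4-cell stage went from 0.46 to 0.18. Within columns 1 to 12 of the 4-cell data the medians were 0.17 for complex I, 0.12 for II, 0.11 for III, 0.30 for IV and 0.41 for V, and within columns 13 to 24 they were 0.46, 0.45, 0.55, 0.47 and 0.56. In columns 13 to 24 without the gene-poor blastomeres they were 0.24, 0.59, 0.46, 0.11 and 0.34.

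**Figure D4:**
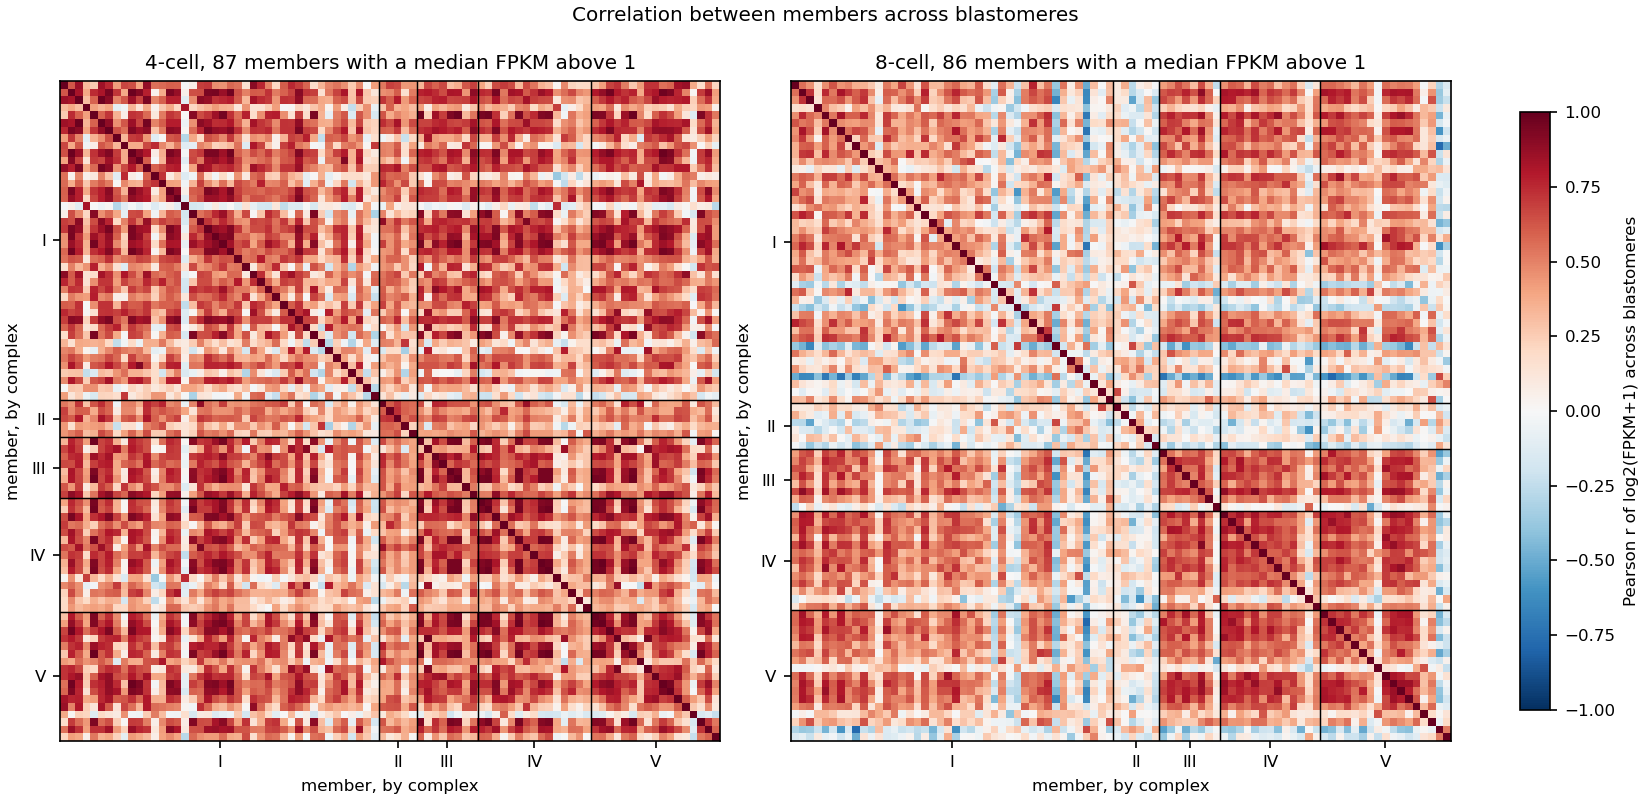
Pearson correlation of log2(FPKM+1) between members across 24 4-cell (left, 87 members) and 26 8-cell blastomeres (right, 86 members), ordered by complex and by exon length within a complex, with black lines between complexes. Nearly the whole 4-cell map is above 0, and the 8-cell map holds paler and negative bands for complex II and for the longer genes of complexes I and V.

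Single members differed in how far they followed the others. At the 4-cell stage the median correlation to the other members was highest for Ndufs6 with 0.73, Ndufc1 with 0.72 and Ndufa12 with 0.72, all accessory subunits of complex I. It was lowest for Ndufb11 with -0.02, Atp5pb, the b subunit of the stator stalk, with 0.06, and Ndufaf4 with 0.11. Atp5pb was above 0 in every blastomere, with a lowest value of 159 at the 4-cell stage, and had 297 in the blastomere with 54 members at 0. Without the gene-poor blastomeres it had 0.46 and was no longer among the lowest, Ndufaf4 had 0.27 and Ndufb11 -0.00399, while Ndufs6 stayed highest with 0.59. The lowest were then Cox6b2 with -0.21, Cox7b with -0.17 and Cox7a2l with -0.10, and members below 0 went from 1 to 5. Ndufv2 with 0.57 and Uqcr10 with 0.55 followed Ndufs6, and Ndufc1 and Ndufa12 had 0.53 and 0.52. At the 8-cell stage Uqcrq with 0.61, Cox6a1 with 0.59 and Ndufa4 with 0.58 were highest. Ndufaf1 with -0.37, Ndufs1 with -0.29 and Atp5b with -0.18 were lowest, and 10 of 86 members were below 0. Without the gene-poor blastomeres 6 were, Ndufaf1 with -0.34 and Ndufs1 with -0.11 stayed lowest, and Uqcrq had 0.57. The highest were then Atp5g1 with 0.60, Atp5o with 0.58 and Cox7c with 0.58, and Atp5b had -0.07.

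Some pairs were close at both stages. Cox7c and Uqcrq, small subunits of different complexes, had a correlation of 0.96 over 24 and 0.89 over 26 blastomeres, and Ndufa4 and Uqcrq 0.77 and 0.80. Atp5a1 and Atp5b, partners in the F1 head, had 0.59 and 0.52. Sdha and Sdhb, which form the catalytic part of complex II, had 0.59 and -0.04. Without the gene-poor blastomeres Cox7c and Uqcrq had 0.72 and 0.90, Ndufa4 and Uqcrq 0.59 and 0.79, Atp5a1 and Atp5b 0.24 and 0.50, and Sdha and Sdhb 0.56 and -0.34. Within columns 1 to 12 and 13 to 24 of the 4-cell data Sdha and Sdhb had -0.35 and 0.46, Cox7c and Uqcrq 0.65 and 0.97, Ndufa4 and Uqcrq 0.53 and 0.74, and Atp5a1 and Atp5b 0.48 and 0.73. In columns 13 to 24 without the gene-poor blastomeres the pairs had 0.42, 0.74, 0.48 and 0.036, in the same order. These pairs were picked after their values were seen, and the differences between the stages were not tested.

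Transcript length moved with the correlation. The correlation of a member to the mean of the other members had a median of 0.80 for 26 members of up to 600 bases at the 4-cell stage, 0.78 for 26 of 600 to 1000 bases, 0.72 for 25 of 1000 to 2000 bases and 0.51 for 10 of 2000 to 4000 bases. The same classes, of 27, 24, 25 and 10 members, had 0.75, 0.70, 0.42 and 0.13 at the 8-cell stage. Genes that are not members showed the same order beyond 600 bases, with medians of 0.64, 0.52, 0.35 and 0.10 at the 4-cell stage for 600 to 1000, 1000 to 2000, 2000 to 4000 and over 4000 bases. Theirs were 0.42, 0.11, -0.13 and -0.22 at the 8-cell stage. In each class the members lay above the other genes of that class. Without the gene-poor blastomeres the members had 0.67, 0.63, 0.63 and 0.34 at the 4-cell stage, beside 0.41, 0.46, 0.28 and 0.05 for the other genes. At the 8-cell stage they had 0.73, 0.71, 0.50 and 0.12, beside 0.41, 0.45, 0.16 and -0.08. The part of length in the correlation between members was not tested further.

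**Figure D5:**
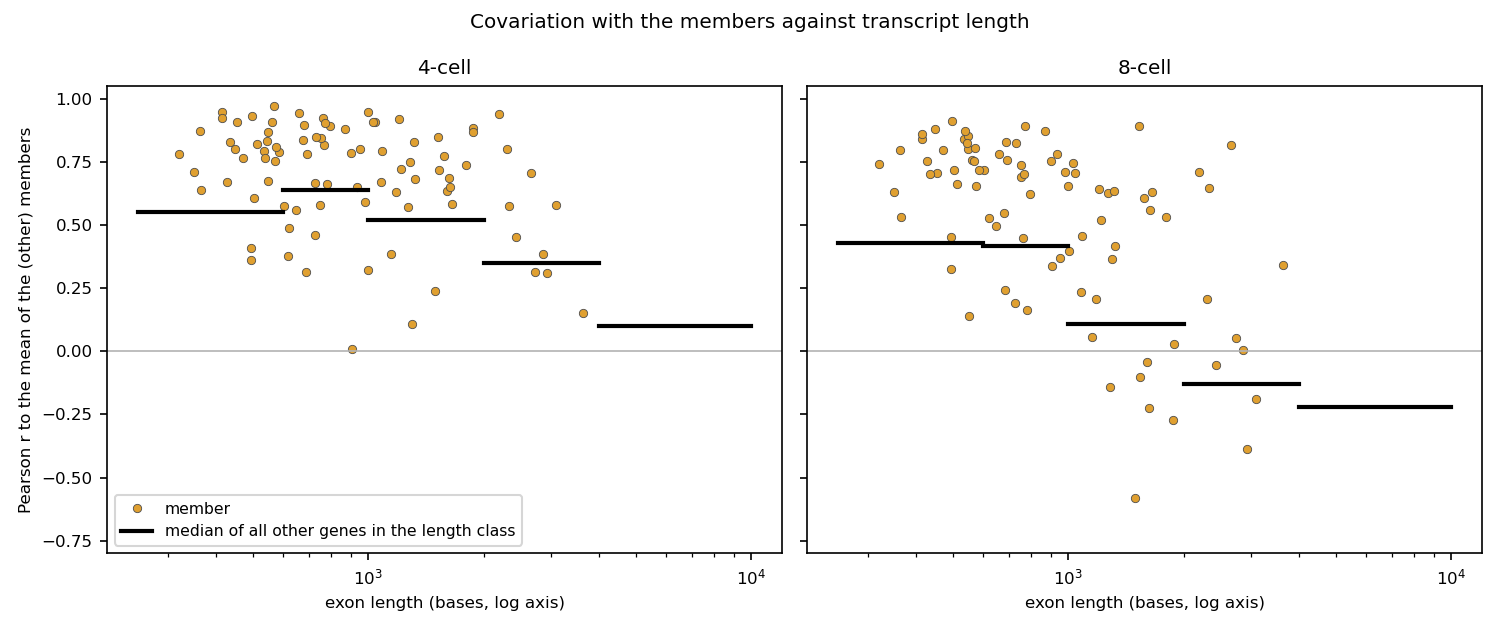
Pearson correlation of each member (points) to the mean of the other members against exon length in bases on a log axis, for the 4-cell (left) and the 8-cell stage (right), with black bars at the median of all other genes in each length class. Points of both panels lie mostly above the bars, and both fall with length, from 0.75 to 0.13 for the members at the 8-cell stage.

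Other gene sets were set beside the members, whose median exon length was 778 bases among the 87 of the 4-cell stage. Cytoplasmic ribosomal protein genes had a median correlation among themselves of 0.74 and 0.65 and with the members of 0.57 and 0.44, at a median exon length of 740 bases. Mitochondrial ribosome genes had 0.51 and 0.17 among themselves and 0.50 and 0.23 with the members, at 1130 bases. Proteasome genes had 0.57 and 0.13, and 0.51 and 0.17 with the members, at 1456 bases. Among the regulators, Nrf1 had a correlation to the mean of the members of -0.37 and -0.53, Pprc1 of -0.55 and -0.09, and Yy1 of -0.25 and 0.02, whereas Gabpa had -0.05 and 0.07. These 4 genes have exon lengths of 6898, 5250, 5854 and 4987 bases, and other genes of over 4000 bases had medians of 0.10 and -0.22. Without the gene-poor blastomeres Nrf1 had -0.64 and -0.47, Pprc1 -0.35 and -0.07, Yy1 -0.08 and 0.02 and Gabpa 0.05 and 0.23, beside -0.10 and -0.18 for other genes of that length. Cycs, the substrate of complex IV, had 0.75 and 0.76, and 0.82 and 0.73 without the gene-poor blastomeres. In that setting the ribosomal protein genes had 0.62 and 0.67 among themselves, the mitochondrial ribosome genes 0.22 and 0.21 and the proteasome genes 0.28 and 0.18. With the members these sets then had 0.35, 0.24 and 0.29 at the 4-cell stage, in the same order.

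The spread between blastomeres was taken as the interquartile range of log2(FPKM+1). Over the 88 members with a median FPKM above 1 in a stage its median was 1.01 at the 4-cell stage and 0.84 at the 8-cell stage, beside 1.59 and 1.61 over the 7131 genes chosen in the same way. Over all 93 members it was 0.9996 and 0.82, beside 1.01 and 0.87 over all 13604 genes, many of which were at 0. It was 0.50 and 0.50 for the F1 genes and 2.85 and 1.52 for the complex II subunits. The members are also more abundant than most genes, and the part of level in this spread was not tested.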

How the data were processed

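Single blastomeres were profiled by the authors with Smart-seq2 and Nextera XT libraries and paired-end reads, which keep no strand. Per the labels and the methods, reads were aligned with STAR 2.5.1b to mm10, only uniquely aligned reads were kept, and HTSeq counted them on RefSeq genes. The authors deposited FPKM values per Entrez gene, 1 table per stage; the gene lengths and totals behind them are not given in the sources used here. The names of the 50 columns match no single sample among the 78 labelled, 5 columns are named NA, and all were kept. The 2 repeat tables were not used. Reads of pseudogenes and of overlapping genes can affect values, and 29 of 93 members overlap another gene in RefSeq (GRCm38.p6).

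Here values were summarised with Python 3.11.15 as medians of log2(FPKM+1) with a pseudocount of 1, and genes above an FPKM of 1 were called expressed. Entrez ids were matched to RefSeq for 15200 of 15218 and 15320 of 15342 rows. Exon length is the union of exons of curated transcripts. The scripts were tested on simulated data. Named were the highest and lowest members of each complex, members past 2-fold, core, complex II, F1 and c subunits, isoforms, members at 0, and the 3 highest and lowest correlations. Other members and lists with values were added after their values were seen. The members and lists were chosen with earlier results of these data known. Alternatives were means, other pseudocounts, filters, scalings, folds and sets of blastomeres, and rank correlation. Some items of the named sets are not reported here.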

Additional observations from a re-analysis of the deposited data

How the results depend on the processing

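With 1 sample per stage and columns not assigned to embryos, no value here has a replicate error. The number of members past 2-fold higher, 4, was 12 with means of the log values, 2 with upper-quartile scaling, 2 without the columns named NA, 2 without blastomeres under 5000 genes and 11 at 1.5-fold. Of the 7131 expressed genes 8.33%, 8.75%, 8.48% and 8.69% were past 2-fold higher in the first 4 of these settings, and 19.3% past 1.5-fold higher. It ran from 2 to 4 when single blastomeres were left out, since Ndufa10 and Sdhc fell short in 25 of 50 such runs each. The number lower, 3, was 8 at 1.5-fold, beside 29.04% of the genes. Splitting the 4-cell columns, chosen after seeing the data, gave 0 higher, 5 lower and a median difference of -0.35 against columns 1 to 12, where Ndufs1 (0.63), Ndufa10 (0.44) and Sdhc (0.19) fell short of 2-fold and Sdhaf3 reversed to -1.27. Columns 13 to 24 gave 23 higher, 2 lower and 0.27, and Cox4i2 fell short there with -0.64. Without the 3 gene-poor blastomeres in those columns the counts were 21 and 5, and Cox4i2 was past 2-fold with -1.27. The median difference of the members was 0.24 with means and -0.20 with upper-quartile scaling. The median correlation at the 4-cell stage went from 0.52 to 0.33 without blastomeres under 5000 genes and to 0.20 within columns 1 to 12, and at the 8-cell stage from 0.30 to 0.18 after rescaling to the same sum. The cause of these shifts was not tested. The level of each complex stayed within 1.5-fold of its value under the alternatives run for it, except those of complexes I and II at the 4-cell stage, 45.6 and 7.21 FPKM in columns 13 to 24. Rescaling together with leaving out the gene-poor blastomeres, an alternative chosen after seeing the data, gave 3 higher and 3 lower. Of the 7131 genes 9.73% were higher and 16.3% lower in that setting. No paired analysis was possible because no column name matches a labelled sample. Depth limits members near an FPKM of 1 or less. Members with far higher medians were also at 0 in some blastomeres, such as Ndufa10 in 3 at the 4-cell stage, with a median of 63.0. The source of such values was not tested, and a 0 is not shown to be absence of the mRNA.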
